A study of Mus musculus with 6 samples.

Results

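Mitochondrial ribosomal protein genes were examined after methamphetamine in microglia, which are the macrophages that reside in the brain. The members are the genes whose symbol begins with Mrpl or Mrps followed by a digit, and 69 of the 23930 genes in the authors' deposited table met this rule. By textbook assignment 45 of them encode proteins of the large subunit of the mitochondrial ribosome and 24 encode proteins of the small subunit. Microglia were sorted from perfused brains of adult C57BL/6 mice as CD11b-positive cells with low CD45 and no CD206. The Meth group held 3 mice given 4 injections of methamphetamine at 5 mg/kg, spaced 2 h apart. The Saline group held 3 mice given 4 injections of saline at the same spacing. The time between the last injection and the sort, and the sex of the mice, are not given in the labels. RNA was read on an Ion Torrent instrument with an amplicon panel that has 1 primer pair for each gene.

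For each gene the deposited table gives a log2 average for Meth and for Saline, a signed fold, an unadjusted p and a p adjusted for the false discovery rate (FDR), all computed by the authors. It holds no value per mouse, so no spread, standard deviation or overlap between mice can be shown, and the sequencing depth is unknown. The averages are read here as log2(RPM + 1), where RPM is reads scaled to a fixed library total. Averages below 0, which a mean of such values cannot take, occur in the authors' deposited table for 14 genes in Meth and 1425 in Saline, and for 0 members in either group. Of 14 microglia markers in the authors' deposited table, the smallest Meth average was 6.81 (Sall1), and P2ry12 stood at 9.20 in both groups. Summed over the 14 markers, back-transformed values made up 3.81% of the total in Meth and 5.42% in Saline. Of the other cell types, astrocyte markers (7 genes) took 0.0053% in Meth, against 0.0143% in Saline, and border-associated macrophage markers (7 genes) 0.00289% against 0.00217%. Neuron (8 genes), monocyte and neutrophil (6) and lymphocyte (5) markers each took 0.00085% or less in either group. For oligodendrocyte markers (6 genes) the share was 0.00915% in Meth, against 0.0108% in Saline, and for endothelial and mural markers (7 genes) 0.00802% against 0.0097%. An average of at least 3 in either group was reached by 1 of the 7 border-associated macrophage markers, 2 of the 7 astrocyte, 3 of the 6 oligodendrocyte and 2 of the 7 endothelial and mural markers, and by 0 of the neuron, monocyte and neutrophil or lymphocyte markers. Mrc1, which encodes the CD206 that the sort selected against, stood at 4.80 in Meth and 4.44 in Saline, per the authors' deposited table, and Cbr2 of the same list at 1.16 and 0.90. Among astrocyte markers Slc1a3 stood at 5.21 in Meth and 7.02 in Saline, and Slc1a2 at 3.80 and 3.78 in the authors' deposited table. Markers listed at 0 in both groups included Lyve1 and Ms4a7 (border-associated macrophages), Gjb6 (astrocytes), Ly6g (neutrophils) and Cd3e (T lymphocytes). The part of these markers in the results was not tested.

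Mitochondria keep a small genome of their own, and the messenger RNAs it encodes, all for subunits of the respiratory chain and the ATP synthase, are translated inside the organelle. The mitochondrial ribosome that does this has RNA encoded in the organelle, but its proteins are encoded in the nucleus, made in the cytosol and imported. Many of these proteins have a counterpart in bacterial ribosomes, and others, here called mitochondria-specific, do not. Among the members, 27 large and 16 small subunit genes have such a counterpart, while 18 large and 8 small subunit genes are mitochondria-specific. Mrps18a and Mrps30 carry small subunit symbols, but their proteins sit in the large subunit and are counted there. Mrps18a and Mrps18b are related to a bacterial protein, S18, but are classed here as mitochondria-specific.

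Promoters of the genes on which the results turn are shown first. Mrpl28 and Mrps2 had the largest deposited folds in each direction, Mrps11 starts head to head with Mrpl46, and Mrps18a, Mrps18b and Mrps18c are 3 related genes that differed in level. Each window runs 5′ to 3′ on the strand of the named gene, from 250 bases before its start to 50 after, from RefSeq on GRCm38.p6. Capitals mark matches, on either strand, to a 7-base consensus of the ETS family (CCGGAAG) or to an 11-base consensus of YY1, which are factors known to act at promoters of nuclear genes for mitochondrial proteins. The windows lie on the plus strand at chr17:26123253-26123552 (Mrpl28), chr2:28467816-28468115 (Mrps2), chr7:78782881-78783180 (Mrps11), chr17:46110754-46111053 (Mrps18a) and chr5:100798509-100798808 (Mrps18c), and on the minus strand at chr17:35916391-35916690 (Mrps18b).
Mrpl28: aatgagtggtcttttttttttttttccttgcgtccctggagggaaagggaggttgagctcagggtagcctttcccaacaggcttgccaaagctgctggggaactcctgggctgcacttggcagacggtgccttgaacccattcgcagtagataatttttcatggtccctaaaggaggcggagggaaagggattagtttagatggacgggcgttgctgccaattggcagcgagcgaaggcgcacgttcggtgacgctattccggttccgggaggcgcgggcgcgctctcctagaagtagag
Mrps2: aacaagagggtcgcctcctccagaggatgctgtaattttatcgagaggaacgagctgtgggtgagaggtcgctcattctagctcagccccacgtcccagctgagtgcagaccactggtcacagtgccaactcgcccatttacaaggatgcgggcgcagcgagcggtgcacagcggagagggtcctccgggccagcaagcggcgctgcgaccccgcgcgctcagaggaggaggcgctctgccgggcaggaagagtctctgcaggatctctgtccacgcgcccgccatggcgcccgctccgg
Mrps11: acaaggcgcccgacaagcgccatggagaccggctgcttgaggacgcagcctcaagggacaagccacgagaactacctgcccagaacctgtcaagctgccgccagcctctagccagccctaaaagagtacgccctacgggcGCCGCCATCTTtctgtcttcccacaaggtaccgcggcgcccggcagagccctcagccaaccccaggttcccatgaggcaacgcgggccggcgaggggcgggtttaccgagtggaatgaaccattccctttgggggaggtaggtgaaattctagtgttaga
Mrps18a: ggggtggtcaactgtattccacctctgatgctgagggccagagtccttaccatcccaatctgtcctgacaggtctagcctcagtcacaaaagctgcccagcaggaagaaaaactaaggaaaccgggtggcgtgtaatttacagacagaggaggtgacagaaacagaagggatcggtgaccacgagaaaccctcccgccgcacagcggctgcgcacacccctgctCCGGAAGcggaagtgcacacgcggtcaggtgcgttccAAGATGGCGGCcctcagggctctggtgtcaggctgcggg
Mrps18b: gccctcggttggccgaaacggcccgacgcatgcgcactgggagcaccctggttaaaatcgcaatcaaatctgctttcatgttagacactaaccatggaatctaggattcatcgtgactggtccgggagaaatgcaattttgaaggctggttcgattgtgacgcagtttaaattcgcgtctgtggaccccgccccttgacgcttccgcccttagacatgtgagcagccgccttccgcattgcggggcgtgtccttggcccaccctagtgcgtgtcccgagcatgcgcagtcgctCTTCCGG
Mrps18c: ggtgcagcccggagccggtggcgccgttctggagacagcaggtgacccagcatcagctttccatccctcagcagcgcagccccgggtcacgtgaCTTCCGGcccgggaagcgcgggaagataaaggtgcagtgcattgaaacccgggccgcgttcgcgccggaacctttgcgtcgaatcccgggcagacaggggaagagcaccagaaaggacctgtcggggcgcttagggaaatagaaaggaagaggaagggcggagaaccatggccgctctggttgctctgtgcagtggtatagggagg

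Reads were found for transcripts of both subunits throughout. In the deposited averages, 67 of the 69 members had an average of at least 1 in either group, 58 had one of at least 3, and 0 were listed at 0 in both. Averages of members ran from 0.02 to 7.68 in Meth and from 0.16 to 6.59 in Saline. The median member stood at 4.58 in Meth and 4.37 in Saline, against 4.75 and 4.77 for the median of the 10375 genes that reached 1 in either group. Back-transformed and summed, the members took 0.212% of the total in Meth and 0.170% in Saline. An amplicon level depends on its primer pair as well as on the transcript, so the order of members describes reads and not the abundance of transcripts or proteins.

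The 5 members with the highest mean of both averages were Mrpl24, Mrpl51, Mrpl43, Mrps18b and Mrps23. Mrpl24, whose protein lies near the exit of the tunnel for the nascent chain, stood at 7.68 in Meth and 6.53 in Saline, per the authors' deposited table, a 2.22-fold difference (unadjusted p = 0.0525). Mrpl51 stood at 6.36 in Meth and 6.59 in Saline, Mrpl43 at 6.44 and 6.34, and Mrps23 at 6.11 and 6.36 in the authors' deposited table. Their unadjusted p-values ran from 0.4162 to 0.7206. At the other end were Mrps7, Mrpl36, Mrps18c, Mrps6 and Mrps18a. Mrps7, a protein of the small subunit head, was close to 0 with 0.02 in Meth and 0.16 in Saline, per the authors' deposited table, which cannot be told apart from a poorly performing primer pair. Near 0 a difference depends on the constant added before the log, and with 0.1 in place of 1 that of Mrps7 was -0.93 and not -0.14.

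**Figure D1:**
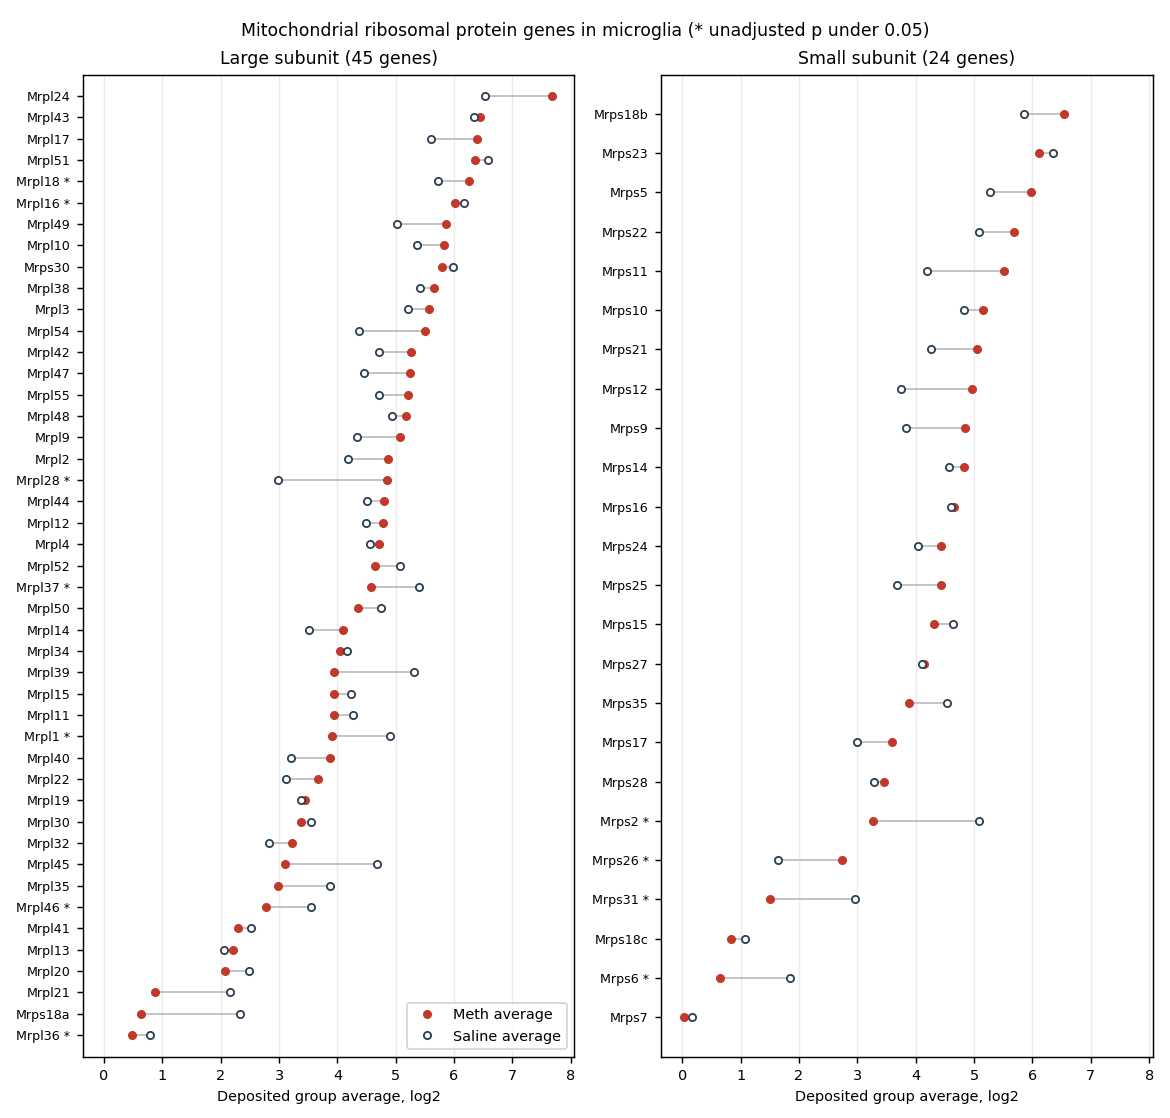
Deposited group averages (log2) of the 45 large subunit genes and the 24 small subunit genes, ordered by their Meth average, with filled points for Meth and open points for Saline. Asterisks mark the 11 members with an unadjusted p under 0.05. The filled point lies to the right for 41 genes and to the left for 28, and Mrpl28 and Mrps2 have the longest connecting lines.

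The design sets Meth against Saline, and asks what methamphetamine changes in the transcripts of microglia. None of the 69 members had a deposited FDR adjusted p under 0.05, and the smallest was 0.2995 for Mrpl28. By the same rule 2.24% of all genes were called, and 0.357% of the genes that reached an average of 1 in either group. At an unadjusted p under 0.05 there were 11 members, 3 with a higher and 8 with a lower Meth average. The 3 higher members are 4.35% of 69, against 6.46% of genes that reached 1 in either group (6.38% of all genes). The 8 lower members are 11.6%, against 8.19% of genes at that level (3.76% of all genes). Of the 67 members that themselves reached 1 in either group, 3 were higher and 7 lower at an unadjusted p under 0.05. With either average of at least 3, 2 higher and 5 lower of 58 members remained under 0.05. Of the 8253 genes at that level 558 were higher (6.76%) and 699 lower (8.47%) under 0.05. The share of lower members was thus near that of all genes at that level. The test behind the authors' p-values is not given in the sources used here.

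As a set, members lay more often above their Saline average than below it. The Meth average was higher for 41 members (59.4%) and lower for 28, against 50.7% higher among genes that reached 1 in either group. Of the 67 members that themselves reached 1, 61.2% were higher. The median difference, Meth minus Saline on the log2 scale, was 0.17 for the 69 members and 0.23 for these 67. For all genes that reached 1 this median difference was 0.02. It depended on the members counted and on the summary, with a median of 0.29 for the 58 members with either average of at least 3 (0.04 for all genes at that level) and a mean of 0.08 over the 69 members (-0.05 for genes that reached 1). The lower and upper quartiles were -0.30 and 0.61 for the members, against -0.50 and 0.46. A deposited fold of at least 2 was listed for 15 members, 7 higher and 8 lower in Meth. These are 10.1% and 11.6% of the members, against 6.66% and 10.8% of genes that reached 1 in either group. Only 6 of the 15 also had an unadjusted p under 0.05, and 5 of the 11 members under 0.05 had a smaller fold, so the size of a difference and its p-value did not always go together.

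**Figure D2:**
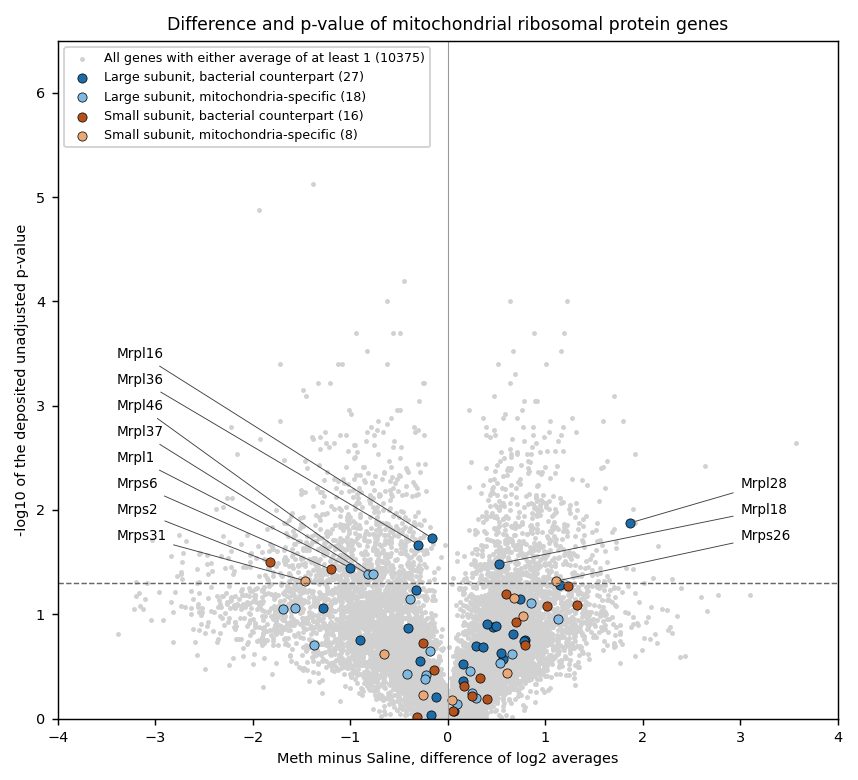
Difference of the deposited averages, Meth minus Saline (log2, horizontal axis), against the negative log10 of the deposited unadjusted p-value, for the 69 members (coloured by subunit and origin) and the 10375 genes that reached 1 in either group (grey). The dashed line marks the unadjusted threshold of 0.05. Of the 11 named members above it, 3 lie to the right of 0 and 8 to the left, all within the range of the grey points.

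Of large subunit proteins with a bacterial counterpart, Mrpl28 had the largest difference of all members. Its average was 4.85 in Meth and 2.98 in Saline, per the authors' deposited table, a 3.65-fold difference (unadjusted p = 0.0133, adjusted p = 0.2995). Mrpl18, a protein of the central protuberance, stood at 6.26 in Meth and 5.73 in Saline, per the authors' deposited table (1.44-fold, unadjusted p = 0.0327). In the other direction, Mrpl1, which forms the stalk near which spent transfer RNA leaves, stood at 3.90 in Meth and 4.90 in Saline, per the authors' deposited table (2.00-fold lower, unadjusted p = 0.0358). Mrpl16, a protein near the peptidyl transferase centre, had the second smallest p of all members, 0.0186, on a difference of 6.01 in Meth against 6.17 in Saline, per the authors' deposited table. Mrpl36, the counterpart of the smallest bacterial ribosomal protein, stood at 0.48 in Meth and 0.78 in Saline, per the authors' deposited table (unadjusted p = 0.0215). Its difference was -0.30 as deposited and -0.72 with 0.1 as the added constant. The 27 genes of this group had 17 higher and 10 lower Meth averages and a median difference of 0.29.

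Further members of the large subunit are given by their place in it. Large subunit members with an unadjusted p under 0.05 are described in the paragraphs before and after. By that choice each of these 8 lies at 0.05 or above. The stalk that recruits translation factors is built on Mrpl10 and Mrpl11 and carries Mrpl12. Mrpl10 stood at 5.83 in Meth and 5.37 in Saline, Mrpl12 at 4.78 and 4.49, and Mrpl11 at 3.94 and 4.27 in the authors' deposited table (unadjusted p = 0.1319, 0.2014 and 0.0591). Around the tunnel exit the deposited table of the authors listed Mrpl22 at 3.67 in Meth and 3.12 in Saline, and Mrpl47 at 5.24 and 4.46. Mrpl45, a mitochondria-specific protein that ties the exit to the inner membrane, stood at 3.11 in Meth and 4.68 in Saline, per the authors' deposited table. This 2.97-fold lower value, from the authors' deposited table, had an unadjusted p of 0.0878. Near the peptidyl transferase centre, Mrpl2 stood at 4.86 in Meth and 4.19 in Saline, and Mrpl3 at 5.57 and 5.21 in the authors' deposited table, with unadjusted p-values of 0.1536 and 0.2053.

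The mitochondria-specific proteins of the large subunit were the 1 group of the 4 with more lower than higher averages. Of its 18 genes 8 were higher and 10 lower in Meth, with a median difference of -0.20. An unadjusted p under 0.05 was listed for 2 of the 18, both lower. Among genes that reached 1 in either group, 8.19% were lower at that threshold, so 2 of 18 is near the share of all such genes. Mrpl37 stood at 4.58 in Meth and 5.40 in Saline (1.76-fold lower, unadjusted p = 0.0415), as the authors' deposited table gives it. For Mrpl46, a protein of the central protuberance, the authors' deposited table lists 2.78 in Meth and 3.55 in Saline (1.70-fold lower, unadjusted p = 0.0411). Mrpl39, related to threonyl-tRNA synthetase, stood at 3.95 in Meth and 5.32 in Saline, per the authors' deposited table, and this 2.59-fold lower value had a p of 0.1976. Mrps30 stood at 5.80 in Meth and 5.98 in Saline, per the authors' deposited table. The higher members of this group were led by Mrpl54, at 5.50 in Meth and 4.37 in Saline, and Mrpl49, at 5.87 and 5.02 in the authors' deposited table (unadjusted p = 0.1105 and 0.0783). Some other proteins of the central protuberance, picked after their values were seen, lay above Saline in the authors' deposited table. Mrpl38 stood at 5.65 in Meth and 5.42 in Saline, Mrpl40 at 3.87 and 3.21, and Mrpl48 at 5.18 and 4.93. Their unadjusted p-values in the authors' deposited table were 0.3533, 0.2407 and 0.5631.

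In the small subunit 16 of the 24 genes lay above their Saline average and 8 below it, with a median difference of 0.29 and a mean of 0.17. Mrps2, a conserved protein between body and head, had the largest lower difference of all members. It stood at 3.27 in Meth and 5.09 in Saline, per the authors' deposited table, 3.54-fold lower (unadjusted p = 0.0318, adjusted p = 0.4219). Mrps6 stood at 0.65 in Meth and 1.85 in Saline, and Mrps31, a mitochondria-specific protein of the head, at 1.50 and 2.96 in the authors' deposited table (unadjusted p = 0.0372 and 0.0478). With 0.1 as the added constant the difference of Mrps6 was -2.02, against -1.20 as deposited. Against these, Mrps26 stood at 2.74 in Meth and 1.63 in Saline, per the authors' deposited table (2.16-fold, unadjusted p = 0.0482). Mrps12, whose protein is part of the decoding centre, was listed at 4.97 in Meth and 3.74 in Saline (2.34-fold, unadjusted p = 0.0540), again from the authors' deposited table. Mrps11, a platform protein, stood at 5.52 in Meth and 4.19 in Saline, and Mrps9 at 4.85 and 3.83 in the authors' deposited table (2.52-fold and 2.03-fold, unadjusted p = 0.0812 and 0.0827). At the entrance of the messenger RNA channel the authors' deposited table had Mrps5 at 5.98 in Meth and 5.28 in Saline, and Mrps24 at 4.44 and 4.04. Those within 0.10 of equality were Mrps16, with 4.65 in Meth and 4.60 in Saline, and Mrps27, with 4.14 and 4.10 in the authors' deposited table.

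By origin rather than by subunit, 28 of the 43 genes with a bacterial counterpart had a higher Meth average, with a median difference of 0.29. Of the 26 mitochondria-specific genes 13 were higher, with a median of -0.07. The difference between these groups was not tested.

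The 3 mammalian relatives of bacterial ribosomal protein S18 occupy different places in the ribosome. The authors' deposited table listed Mrps18b at 6.54 in Meth and 5.86 in Saline (1.60-fold, unadjusted p = 0.0697). Mrps18a was listed at 0.64 in Meth and 2.33 in Saline, 3.21-fold lower (unadjusted p = 0.0898), and Mrps18c at 0.83 and 1.08 (unadjusted p = 0.1886), both from the authors' deposited table. Both are low, and with 0.1 as the added constant their differences were -2.65 and -0.47, against -1.69 and -0.25 as deposited. Mrps18b is thus the 1 relative with a higher Meth average and the 1 with an average above 3, and none of the 3 passed the threshold.

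Subunits that carry other symbols, and therefore fall outside the rule, gave 2 more values under 0.05. The authors' deposited table listed 5 such genes, 4 higher and 1 lower in Meth. Both values under 0.05 (unadjusted p) were higher, 40.0% of the 5, against 6.46% of genes that reached 1 in either group. A share of 5 genes is imprecise and was not tested. Dap3, a GTP-binding protein of the small subunit head, stood at 6.59 in Meth and 5.06 in Saline, per the authors' deposited table (2.89-fold, unadjusted p = 0.0415, adjusted p = 0.4613). Ict1 (now Mrpl58), a large subunit protein with peptidyl-tRNA hydrolase activity, stood at 5.41 in Meth and 4.58 in Saline, per the authors' deposited table (1.77-fold, unadjusted p = 0.0326). Ptcd3 stood at 2.77 in Meth and 4.58 in Saline (3.51-fold lower, unadjusted p = 0.1030), also from the authors' deposited table.

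Of 25 genes that assemble the mitochondrial ribosome, 18 were higher in Meth (72.0%, against 50.7% of genes that reached 1 in either group). The other 7 were lower, and the median difference of the 25 was 0.24. An unadjusted p under 0.05 was listed for 2 higher genes (8.0%) and 1 lower gene (4.0%), against 6.46% and 8.19% of genes that reached 1 in either group, so their share was near that of all such genes. Wbscr16 (now Rcc1l), needed for the large subunit, stood at 4.82 in Meth and 3.96 in Saline, per the authors' deposited table (1.81-fold, unadjusted p = 0.0165). Ddx28, an RNA helicase of large subunit assembly, stood at 4.64 in Meth and 4.47 in Saline (1.13-fold, unadjusted p = 0.0457), and Mettl15, a methyltransferase for the small subunit RNA, at 1.02 and 2.51 (2.82-fold lower, unadjusted p = 0.0330), both in the authors' deposited table. Of the translation factors and partners 5 of 15 were higher (33.3%) and 10 lower, with a median of -0.27. Of these 15, 1 had an unadjusted p under 0.05 (6.67%, against 8.19% of genes at that level in this direction). This was the elongation factor Gfm1, at 4.24 in Meth and 5.30 in Saline (2.08-fold lower, unadjusted p = 0.0389), as listed in the authors' deposited table. Of 7 genes of mitochondrial DNA replication and transcription 3 were higher (42.9%) and 4 lower. Tfam, which packages mitochondrial DNA, stood at 3.53 in Meth and 4.82 in Saline, and the polymerase Polg at 6.86 and 5.31 in the authors' deposited table (unadjusted p = 0.2328 and 0.0833). Mterf1a alone of these lists had an adjusted p under 0.05 (0.0001), with 0.13 in Meth and -0.07 in Saline, per the authors' deposited table, in the range below 0 described above.

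**Figure D3:**
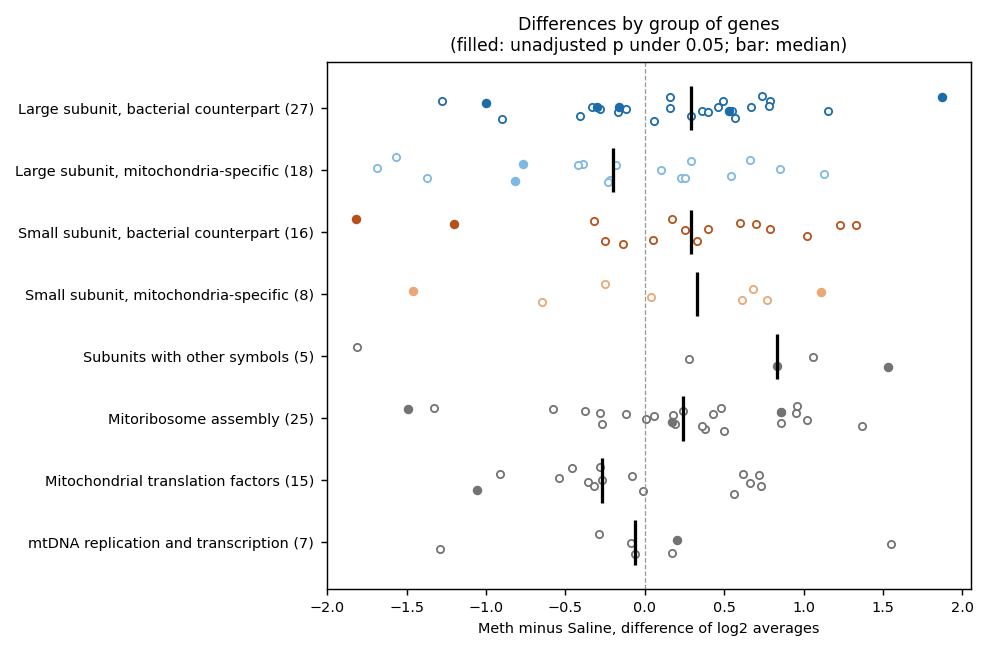
Difference of the deposited averages, Meth minus Saline (log2), for each gene of the 4 classes of members (coloured) and of 4 further lists (grey). Points are genes, filled where the unadjusted p is under 0.05, and the vertical bars are medians. The medians of the 4 classes are 0.29, -0.20, 0.29 and 0.33 from top to bottom, and each class spans 0.

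Genes of the respiratory chain and of the cytosolic ribosome, taken by symbol alone, are given beside the members. For the respiratory chain and ATP synthase, 91 genes had a symbol beginning with Nduf, Atp5, Uqcr, Sdh, or Cox and a digit. They had 55 higher (60.4%) and 31 lower averages and a median difference of 0.25, beside 59.4% higher and a median of 0.17 for the members. The 37 genes in the authors' deposited table whose symbol begins with Rpl or Rps and a digit had 17 higher (45.9%) and 17 lower averages. Their median was 0.00. Both rules go by symbol and can take genes whose products are not subunits, which were not removed. Whether the members differ from these sets was not tested.

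Some members start close to another gene on the opposite strand, and how often genes in general do so was not counted. Of the 61 members with a RefSeq promoter window, 24 had a gene on the opposite strand that starts within 1000 bases upstream and runs away from the member. In 21 such pairs both genes were in the authors' deposited table, and 12 of them lay on the same side of 0 (8 both higher and 4 both lower in Meth) while 9 did not. Among the 19 pairs in which both genes had an average of at least 1 in either group, 63.2% lay on the same side, against 48.3% of 534 such pairs in the whole table. In 0 of the 21 pairs did both genes have an unadjusted p under 0.05.

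The pair Mrps11 and Mrpl46, a small and a large subunit gene whose starts are 42 bases apart, lay on opposite sides. Mrps11 was 2.52-fold higher and Mrpl46 1.70-fold lower in Meth, per the authors' deposited table, and the promoter window of Mrps11 printed above covers both starts. Mrps12 and Sars2, the mitochondrial seryl-tRNA synthetase, start 147 bases apart and were both higher. Sars2 stood at 3.24 in Meth and 2.35 in Saline, per the authors' deposited table (unadjusted p = 0.2118). Mrpl37 and Cyb5rl, 128 bases apart, differed in direction, with Cyb5rl at 3.92 in Meth and 2.99 in Saline, per the authors' deposited table (unadjusted p = 0.1287). Mrps5 and Zfp661, 332 bases apart, were both higher, and Zfp661 stood at 4.47 in Meth and 3.17 in Saline, per the authors' deposited table (unadjusted p = 0.0179).

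**Figure D4:**
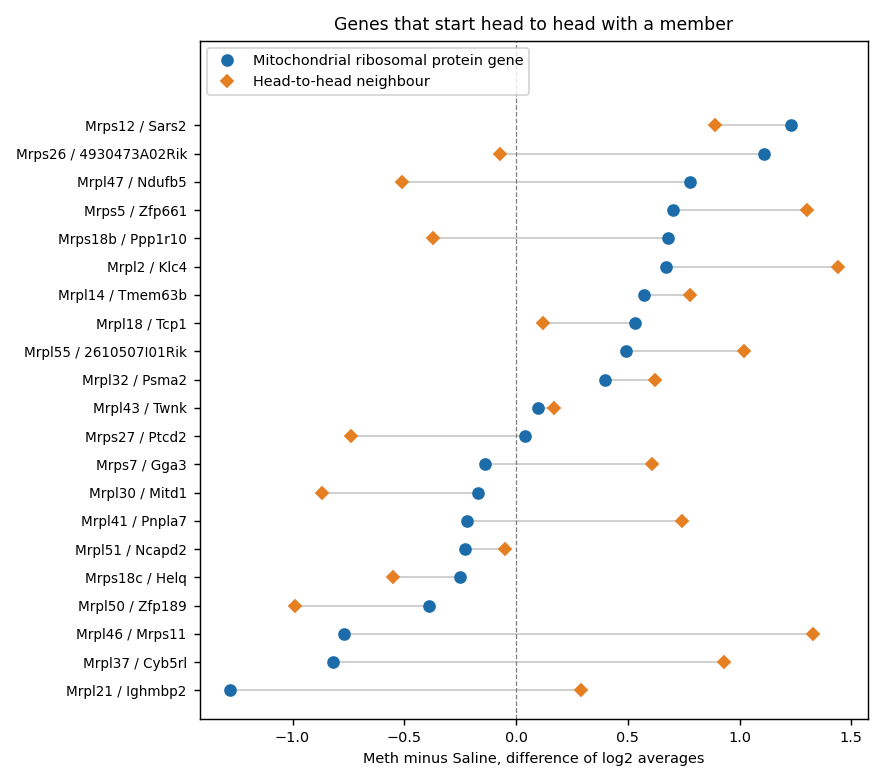
Difference of the deposited averages, Meth minus Saline (log2), for 21 pairs of genes that start head to head within 1000 bases, with circles for the mitochondrial ribosomal protein gene and diamonds for its neighbour (both are members in the pair Mrpl46 and Mrps11). Pairs run from the highest member difference at the top to the lowest at the bottom, and 12 of the 21 have both symbols on the same side of 0.

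Promoter windows of the members held the YY1 and ETS consensus more often than windows in general. The YY1 consensus, on either strand, was found in 5 of 67 member windows (7.46%), against 1.88% of the windows of genes that reached 3 in either group and 0.633% of all windows. CCGGAAG was found in 29.9% of member windows, against 19.7% and 8.86%, and a 10-base consensus of NRF1, another regulator of such genes, in 4.48%, against 2.32% and 0.971%. In the windows printed above, Mrps18a holds CCGGAAG 26 to 20 bases before its start and the YY1 consensus from 11 to 21 bases after it. The windows of Mrpl28 and Mrps2 hold none of the 3. The 20 members with CCGGAAG had 13 higher and 7 lower averages and a median difference of 0.18, and the 41 without it had 22 and 19 and a median of 0.29. Of the 8 lower members with an unadjusted p under 0.05, 0 had CCGGAAG, and of the 3 higher ones 2 had it. Among all 61 members with a window, 32.8% had it. The 5 members with the YY1 consensus had 2 higher and 3 lower averages, a median of -0.82, and 1 lower value under 0.05. The 3 with the NRF1 consensus had 2 and 1, a median of 0.40, and 0 values under 0.05. The same split over all genes was not made, and a link of motif and direction was not tested. A match of letters describes the window and is not a bound site.

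Base composition varied weakly with the differences, across members as across genes that reached 1 in either group. The longest GENCODE transcript of the median member had 49.7% GC, against 49.6% for genes that reached 1 in either group. Spearman's rho between GC content and the Meth minus Saline difference was 0.14 across the 69 members, 0.21 across the 58 with either average of at least 3, and 0.21 across the 9965 of those genes with a matched transcript. Genes within these libraries share their depth and preparation and are not independent, so no p is given, and the part of GC content in the differences was not tested.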

How the data were processed

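Microglial RNA of 3 Meth and 3 Saline mice was reverse transcribed from 1 ng and amplified for 16 cycles with a mouse transcriptome amplicon panel, per the labels' protocols. The sources used here name no aligner, genome build, counting, normalization or statistical model. The deposited log2 averages (1 per group), signed fold score and p-values are the authors' own, per the file headers. The signed fold divides the larger group by the smaller and is negative where Meth is the smaller. Back-transformed averages sum to 981392 in Meth and 1012049 in Saline, so the scale is read as log2(RPM + 1), a reading from the values. A fold on this scale understates the change of low genes. No column holds values per sample, so depth, spread and duplicate libraries could not be examined, and which spread the p-values rest on is not stated.

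Differences, counts, medians and shares were computed here with Python 3.11.15, numpy 2.4.6, pandas 2.3.3 and scipy 1.17.1. The Benjamini-Hochberg step was tested on simulated data. Members and lists were chosen with earlier results of these data known. Named members are those with p under 0.05, the 5 highest and 5 lowest, the 3 largest differences in each direction among members of at least 3, and Mrps18a, Mrps18b, Mrps18c, Mrpl12 and Mrps12; others are given by role after their values were seen. Subunit classes are textbook assignments. Of the 69 members, 61 matched a RefSeq promoter (GRCm38.p6), and all 69 a GENCODE M21 transcript. Promoter motifs and neighbours were described after the values were seen.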

Additional observations from a re-analysis of the deposited data

How the results depend on the processing

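With an FDR threshold of 0.1, 0 members passed, beside 618 of all genes (2.58%). With the deposited p-values readjusted over genes that reach 1 or 3 in either group, 0 members and 0 of all genes passed (smallest adjusted p 0.0685 and 0.1089), so this says nothing about the members. At an unadjusted p under 0.01 there were 0 higher and 0 lower members. With the subunits of other symbols added, 5 were higher and 8 lower, and with either average of at least 3, 2 and 5. The median difference of the members stayed above 0 in each alternative tried, from 0.08 (the mean) to 0.29 (either average at least 3). For the large subunit the mean was 0.033, against a median of 0.16. For the small subunit the value was 0.40 with either average at least 3 and 0.17 as a mean. Scaling both groups to the same sum moved the median of genes that reach 1 in either group to 0.06. Of 72 recomputed differences of 24 named members, 62 moved by at most 0.1 and 0 changed sign. The 10 others all come from a pseudocount of 0.1, and 5 of them moved by over 1.5 times, all in low members: Mrps18a was -2.65, Mrps6 -2.02, Mrps7 -0.93, Mrpl36 -0.72 and Mrps18c -0.47, against -1.69, -1.20, -0.14, -0.30 and -0.25 as deposited. No paired analysis was possible because the table holds no values per sample, and for the same reason leaving out a replicate was not run. Depth is unknown, so the precision of members with low averages cannot be stated.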
